A study of Mus musculus with 36 samples.

Results

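Matricellular proteins are secreted glycoproteins that sit in the extracellular matrix and act on cells more than they bear load. The genes described here encode 10 proteins of this kind or of the matrix glycoproteins and proteoglycans around them: Sparc, Fn1, Postn, Ecm1, Tnc, Thbs1, Thbs2, Dcn, Spp1 and Fbn1. They were chosen by symbol with earlier results of these data known, so their shares beside those of all genes are descriptions. Each was found once among the 52505 genes of the deposited expression table. All 10 passed the filter of a mean of at least 1 FPKM (fragments per kilobase of gene, scaled to library depth), which kept 12961 genes for testing. The cells were 3T3-L1, preadipocytes of a mouse fibroblast line, which form fat cells under an adipogenic hormone cocktail. RNA was sequenced from wild type cells (WT) and from cells with the genotype label zfp217-/- (KO), at day 0 and at day 2 of the cocktail, with 3 libraries in each of the 4 groups. The cocktail, MDI, held dexamethasone (DEX), isobutyl-methylxanthine, insulin and indometacin, and both genotypes were grown in the same serum-containing medium. No library is from day 2 without the cocktail, so effects of the cocktail and of time in culture cannot be told apart. The word response below means the change from day 0 to day 2. Zfp217 encodes a zinc finger protein, and the study asked how its loss alters gene expression and m6A methylation of mRNA in these cells.

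The labels do not say how the KO cells were made, whether they are a single clone, or whether a group's 3 libraries were grown apart. The p-values therefore reflect the spread among these libraries, which may be technical. As a check of the labels, the level of Zfp217 mRNA in KO was above that in WT. It was 22.0 ± 0.279 FPKM (SD, n = 3) in WT and 26.0 ± 0.883 in KO at day 0, and 15.1 ± 0.369 and 22.6 ± 0.858 at day 2 (adjusted p = 7.6e-05 and 2.4e-08). A mutation can leave the message in place, so all directions below are between libraries as labelled. The libraries held 18073746 to 23116567 reads. WT day 0 replicate 3 stood apart in the mitochondrial ribosomal RNA mt-Rnr1, with 264 FPKM where its group mates had 7.01 and 5.87 and the KO day 0 libraries 379.5 to 396, and in the chaperone gene Hsp90aa1, with 886 FPKM where its group mates had 27.2 and 28.5. Without it, every member kept its direction and its side of the threshold in all 5 comparisons. Markers of fibroblasts and preadipocytes were present: the 8 genes of that list (among them Col1a1, Pdgfra and Thy1) summed to between 7245 and 7462 FPKM in WT at day 0. Epcam, which marks epithelium, was at 0 in all 12 libraries, and the 4 endothelial markers summed to at most 0.576 FPKM.

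In connective tissue these proteins have separate tasks. Fibronectin, periostin and tenascin-C carry binding sites for integrins and for each other, SPARC and decorin hold to collagen, and fibrillin-1 builds the microfibrils that store latent TGF-beta. Preadipocytes lie in a fibronectin-rich stroma, and during fat cell formation that stroma is exchanged for a basement membrane. Fibronectin and SPARC are both known to slow adipogenesis in culture.

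At day 0, before the cocktail, 7 of the 10 genes were higher in KO than in WT, 2 were lower and 1 did not pass the test (limma on log2(FPKM + 1), adjusted p under 0.05). Of all genes tested, 82.4% were called in this comparison, 38.3% higher and 44.2% lower, so a call alone says little. A rise of at least 1 on the log2 scale was reached by 5 of the 10 members (Sparc, Postn, Ecm1, Thbs2 and Dcn) and by 10.4% of all genes tested, and a fall of that size by 1 member (Spp1) and by 11.9% of all genes. The members' median log2 difference was 0.67, and that of all genes tested was -0.06. The libraries of the 2 genotypes did not overlap for 9 of the 10 members and for 84% of all genes.

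At day 2, 8 members were higher in KO and none was lower, at adjusted or unadjusted p under 0.05 and by voom on recovered reads as well as by limma, while Tnc and Spp1 did not pass. The background was 81.4% of all genes called, 40.8% higher and 40.6% lower. Here 6 members (Sparc, Fn1, Ecm1, Thbs1, Dcn and Fbn1) were higher by at least 1 on the log2 scale, against 12.9% of all genes tested. The members' median log2 difference was 1.89, beside 0.00026 for all genes tested. The groups did not overlap for 8 members and for 82.2% of all genes.

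From day 0 to day 2, 9 members fell in WT and 1, Postn, rose, where 80.7% of all genes were called, 46.5% falling and 34.2% rising. All 9 of those falls were of at least 1 on the log2 scale, a size reached by 15.1% of all genes, and no rise was that large, against 9.28% of all genes. In KO 9 members fell as well and 1 rose, but there the gene that rose was Ecm1 and Postn fell. The background in KO was 72.7% called, 38.8% falling and 33.9% rising. Here 7 members fell by at least 1 on the log2 scale against 6.99% of all genes, and 1 rose by as much against 5.46%. The libraries of the 2 days did not overlap for any member, nor for 82.2% of all genes in WT and 74.8% in KO. The median log2 change of the members was -2.89 in WT and -1.84 in KO, and that of all genes tested was -0.11 and -0.03. The response itself differed between genotypes for 9 of the 10 members and for 73.8% of all genes (interaction of genotype and day, the KO response minus the WT response). It was more positive in KO for 6 members, where 40.8% of all genes were called in that direction, and more negative for 3, where 33% were. The difference was at least 1 on the log2 scale in the positive direction for 5 members and 12.8% of all genes, and in the negative direction for 1 member (Dcn) and 8.71%.

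**Figure D1:**
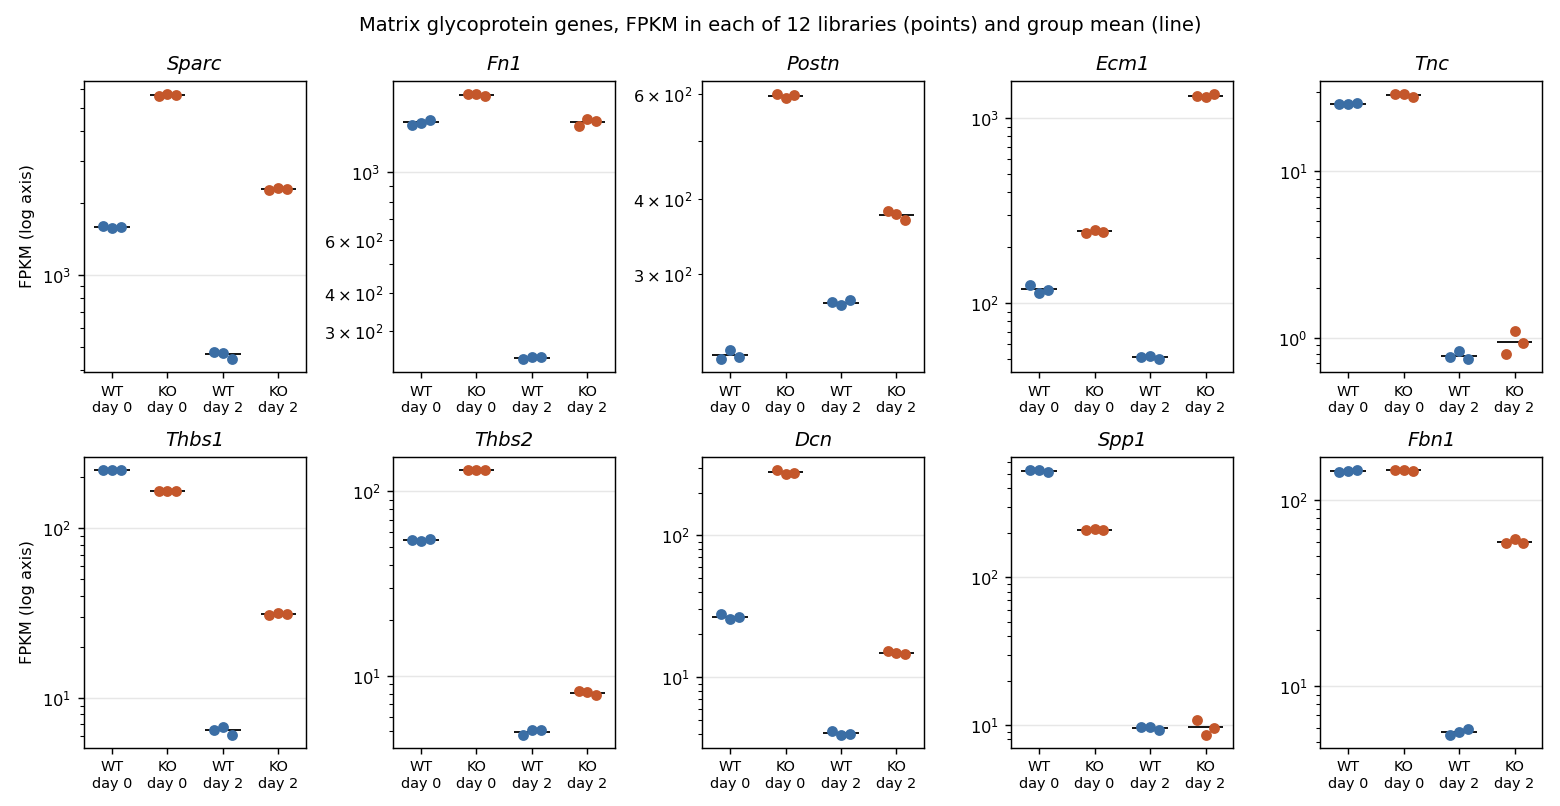
FPKM of each of the 10 genes on a log axis, with 1 point per library and a line at the mean of the 3 libraries of each group (WT and KO at day 0 and day 2). Ecm1 has its highest points in KO at day 2, between 1306 and 1347 FPKM, and Tnc has its lowest points at day 2 in both genotypes, at 1.1 FPKM or less.

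The fibroblast marker sum, most of it Col1a1 and Col1a2 (3536 ± 70.4 and 2684 ± 19.8 FPKM in WT at day 0), was higher in KO and lower at day 2. It was 18540 to 19160 FPKM in KO at day 0, 636 to 652 in WT at day 2 and 4733 to 4861 in KO at day 2. Not every marker followed the sum: at day 0 6 of the 8 were higher in KO, Thy1 did not pass and Cd34 was lower, at 3.94 ± 0.15 FPKM in WT and 0.280 ± 0.0474 in KO. The 7 adipocyte markers (Fabp4, Plin1, Adipoq, Cd36, Lpl, Cidec and Retn) summed to 56.1 to 60.4 FPKM in WT and 190 to 201 in KO at day 0, nearly all of it Lpl (55.9 ± 2.32 and 190.4 ± 3.62 FPKM), the marker that passed there while the other 6 did not. At day 2 all 7 were lower in KO, and they summed to 8156 to 8344 FPKM in WT against 330 to 344 in KO. In RNA from whole cultures, fewer cells of a type and less RNA per cell cannot be told apart, and the part of the marker differences in the results below was not tested.

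Fibronectin, periostin and tenascin-C are the adhesive glycoproteins of the group. Fibronectin (Fn1, chr1:71585473-71653280 in GRCm38.p6) is the large dimer that cells assemble into fibrils through integrin alpha5 beta1. Its 3 libraries held 1431, 1451 and 1483 FPKM in WT at day 0 and 1801, 1799 and 1784 in KO. The day 2 libraries held 243, 247 and 247 FPKM in WT and 1421, 1493 and 1466 in KO. The WT day 2 libraries are the low ones, and no 2 groups at the same day overlap. Fn1 was 1.23-fold higher in KO at day 0 (log2 difference 0.30 ± 0.023 (SE), adjusted p = 1.0e-07) and 5.94-fold higher at day 2 (2.56 ± 0.023, adjusted p = 8.5e-16). In WT it dropped 5.92-fold with the cocktail and in KO 1.23-fold, and the responses differed by 2.26 on the log2 scale (adjusted p = 1.1e-13).

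Periostin (Postn, chr3:54359267-54391041), which binds collagen I, fibronectin and tenascin-C, took a course of its own. Its FPKM was 216, 224 and 218 in WT at day 0 and 598, 590.2 and 598 in KO. Day 2 values were 268, 266 and 270.4 in WT and 381, 378 and 369 in KO. KO was the higher genotype at both days, but WT rose while KO fell. The KO excess was 2.72-fold at day 0 (log2 difference 1.44, adjusted p = 4.1e-14) and 1.40-fold at day 2 (0.49, adjusted p = 3.8e-10). Between the days Postn rose 1.22-fold in WT (adjusted p = 5.1e-08) and fell 1.58-fold in KO (adjusted p = 4.1e-11), with a difference between responses of -0.95 (SE 0.029, adjusted p = 4.2e-11).

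Tenascin-C (Tnc, chr4:63959785-64047015), a 6-armed glycoprotein of developing and healing tissue, was the gene whose genotypes lay closest over both days. WT libraries held 25.2, 25.2 and 25.8 FPKM at day 0 and KO libraries 28.9, 29.0 and 28.0. By day 2 the values were 0.765, 0.832 and 0.747 in WT and 0.797, 1.10 and 0.926 in KO, near or below 1 FPKM, with as few as 92 reads in a library. At day 0 KO was 1.13-fold higher (log2 difference 0.17, adjusted p = 0.015), a call that was lost with a pseudocount of 0.1 (adjusted p = 0.10). At day 2 the groups overlapped and the difference of 0.12 did not pass (adjusted p = 0.065). That sign depends on the scaling: it was -0.19 with quantile normalization (adjusted p = 0.011), while without KO day 2 replicate 1 it was 0.17 (adjusted p = 0.0094). Tnc fell 32.5-fold in WT and 30.5-fold in KO by day 2. The difference between those responses was -0.05 with an adjusted p of 0.61. It was 0.06 with a pseudocount of 0.1, and -0.48 with quantile normalization, where it passed (adjusted p = 0.000271).

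SPARC and decorin bind collagen fibrils and growth factors, and both were higher in KO at both days. SPARC (Sparc, chr11:55394159-55420080), also called osteonectin, is a calcium-binding glycoprotein that helps collagen mature. By FPKM it was the highest of the 10 genes in every group, although Fn1 took a larger share of the reads in each. Sparc stood at 1604, 1576 and 1579.8 FPKM in WT at day 0 and at 5603, 5684 and 5652 in KO. By day 2 it had fallen to 477, 474 and 447 in WT and to 2268, 2308 and 2296 in KO. The KO libraries at day 2, after the fall, were above the WT libraries at day 0. The KO excess was 3.56-fold at day 0 (log2 difference 1.83 ± 0.026, adjusted p = 4.1e-14) and 4.92-fold at day 2 (2.30 ± 0.026, adjusted p = 4.6e-15). The fall was 3.41-fold in WT and 2.46-fold in KO, a difference in log2 response of 0.47 (adjusted p = 2.4e-07).

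Decorin (Dcn, chr10:97479500-97518163) is a small leucine-rich proteoglycan that coats collagen fibrils and binds TGF-beta. Its FPKM was 27.7, 25.7 and 26.5 in WT at day 0 and 288, 272 and 276 in KO. By day 2 its FPKM was 4.16, 3.95 and 3.98 in WT and 15.3, 14.7 and 14.7 in KO. Dcn had the largest KO excess of the 10 genes at day 0, 10.5-fold (log2 difference 3.34 ± 0.036, adjusted p = 6.4e-15), which was rank 42 from the highest of the 12961 genes tested. At day 2 the excess was 3.69-fold (1.66 ± 0.036, adjusted p = 9.1e-13). The fall with the cocktail was 6.61-fold in WT and 18.7-fold in KO, so the responses differed by -1.68 (adjusted p = 4.1e-11). Its log2 change in KO was rank 17 from the lowest of all genes tested.

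**Figure D2:**
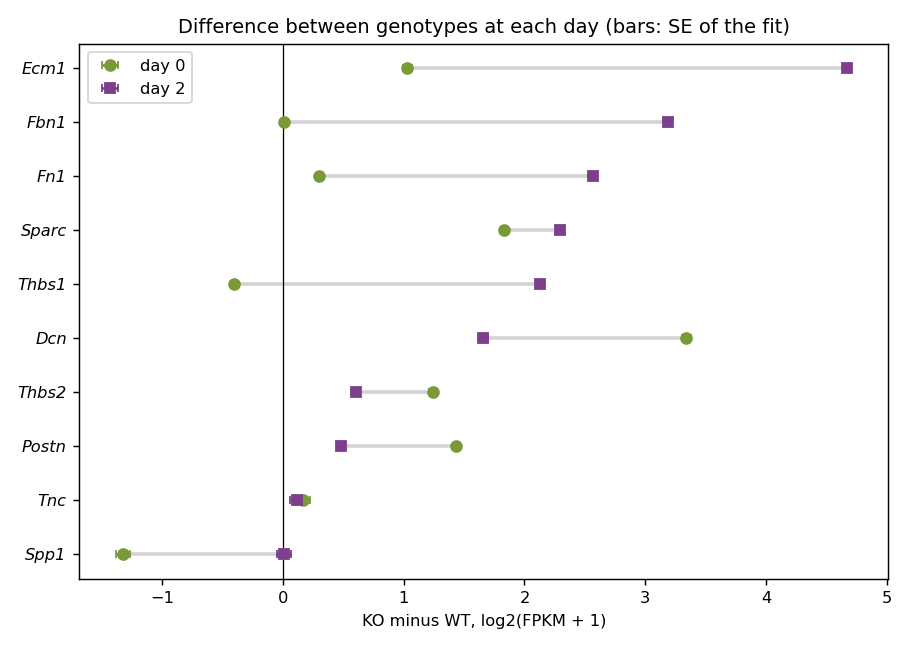
Log2 difference in log2(FPKM + 1) between KO and WT for the 10 genes at day 0 and at day 2, with bars of 1 SE from the fit. At day 2 the highest differences are those of Ecm1 (4.67) and Fbn1 (3.18), and at day 0 that of Dcn (3.34), while Spp1 lies at -1.32 at day 0 and at 0.01 at day 2.

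Thrombospondins 1 and 2 are trimeric glycoproteins that bind CD36 and CD47, restrain blood vessel growth and, for thrombospondin-1, activate latent TGF-beta. At day 0 the pair moved in opposite directions, with Thbs1 lower and Thbs2 higher in KO. Thbs1 (chr2:118111876-118127133) stood at 219, 219 and 221 FPKM in WT and at 167, 166 and 166 in KO (log2 difference -0.40, adjusted p = 6.1e-08). Thbs2 (chr17:14665500-14694262) stood at 54.6, 53.6 and 54.8 FPKM in WT and at 129, 129.7 and 130.1 in KO (log2 difference 1.24, adjusted p = 2.2e-12). The libraries of the genotypes did not overlap for either gene.

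At day 2 both thrombospondins were higher in KO. Thbs1 had dropped to 6.47, 6.72 and 6.08 FPKM in WT and to 31.0, 31.8 and 31.3 in KO, a 4.88-fold excess (log2 difference 2.12, adjusted p = 1.7e-14). Thbs2 had dropped to 4.80, 5.07 and 5.07 FPKM in WT and to 8.30, 8.13 and 7.87 in KO, a 1.63-fold excess (0.61, adjusted p = 1.2e-09). From day 0, Thbs1 fell 34.2-fold in WT and 5.29-fold in KO, and Thbs2 fell 10.9-fold in WT and 16.0-fold in KO. Thus the differences between responses had opposite signs, 2.53 for Thbs1 (adjusted p = 2.7e-13) and -0.63 for Thbs2 (adjusted p = 3.7e-08). The ratio of Thbs1 to Thbs2, both in FPKM, was 4.02 to 4.09 in the WT libraries and 1.27 to 1.29 in the KO libraries at day 0. On day 2 it was 1.20 to 1.35 in WT and 3.74 to 3.98 in KO. The ratio was thus near 4 in WT before and in KO after the cocktail began, and near 1.3 in the other groups, although the levels behind it differed widely.

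Osteopontin (Spp1, chr5:104435111-104441053), an acidic phosphoprotein that binds integrins and CD44, was the member with the lowest log2 change in both genotypes, although as a ratio of FPKM Tnc fell further in KO. It stood at 531, 531 and 511 FPKM in WT at day 0 and at 208, 212 and 209 in KO. Day 2 libraries had 9.69, 9.71 and 9.24 FPKM in WT and 10.9, 8.64 and 9.49 in KO, where the libraries overlapped. Spp1 was 2.50-fold lower in KO at day 0 (log2 difference -1.32 ± 0.058, adjusted p = 6.6e-10). The difference of 0.01 at day 2 did not pass (adjusted p = 0.86), and its sign turned with median-of-ratios scaling and with quantile normalization. The fall was 54.9-fold in WT, the 6th lowest log2 change of all genes tested, and 21.7-fold in KO, the 13th lowest. The responses differed by 1.33 (adjusted p = 2.6e-08). The osteoblast marker list, 7 genes of a cell type known for osteopontin, summed to 38.5 to 39.4 FPKM in WT and 24.9 to 26.7 in KO at day 0. At day 2 it summed to 14.2 to 15.4 in WT and 7.44 to 8.43 in KO. Most of it was Runx2, the only gene of the list to pass the expression filter. Alpl went against the sum in WT, from 0.0592 ± 0.0594 FPKM at day 0 to 3.74 ± 0.378 at day 2. The part of this list in the Spp1 result was not tested.

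Extracellular matrix protein 1 (Ecm1, chr3:95734147-95739876) is a secreted glycoprotein that binds perlecan and fibulins, and, like Postn but with the signs exchanged, it moved in opposite directions in the 2 genotypes. Its FPKM was 126, 113 and 118 in WT at day 0 and 240.5, 249 and 244 in KO. It was 50.9, 52.0 and 50.0 in WT and 1311, 1306 and 1347 in KO at day 2. WT fell 2.34-fold (log2 change -1.21, adjusted p = 1.0e-11), whereas KO rose 5.41-fold (2.43, adjusted p = 5.1e-14). The difference between responses was 3.64 ± 0.049 (adjusted p = 7.8e-14). Ecm1 was 2.05-fold higher in KO at day 0 and 25.9-fold higher at day 2, where its log2 difference of 4.67 (adjusted p = 3.3e-16) was the 7th highest of all genes tested.

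Fibrillin-1 (Fbn1, chr2:125300594-125506485) forms the microfibrils on which elastin is laid, and the end of its precursor is released as the fasting hormone asprosin. The genotypes had much the same level before the cocktail and came apart after it. Fbn1 stood at 142, 143 and 145 FPKM in WT at day 0 and at 145, 145 and 144 in KO. At day 2 it stood at 5.51, 5.67 and 5.89 in WT and at 58.9, 61.7 and 58.9 in KO. The day 0 difference of 0.01 on the log2 scale did not pass (SE 0.027, adjusted p = 0.64) and the libraries overlapped. It passed at 0.12 with TPM scaling (adjusted p = 0.0048) and at 0.18 with quantile normalization (adjusted p = 3.48e-05). At day 2 KO was 10.5-fold higher (3.18 ± 0.027, adjusted p = 7.2e-16). Fbn1 fell 25.2-fold in WT and 2.42-fold in KO, and the responses differed by 3.17 (adjusted p = 3.9e-14).

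**Figure D3:**
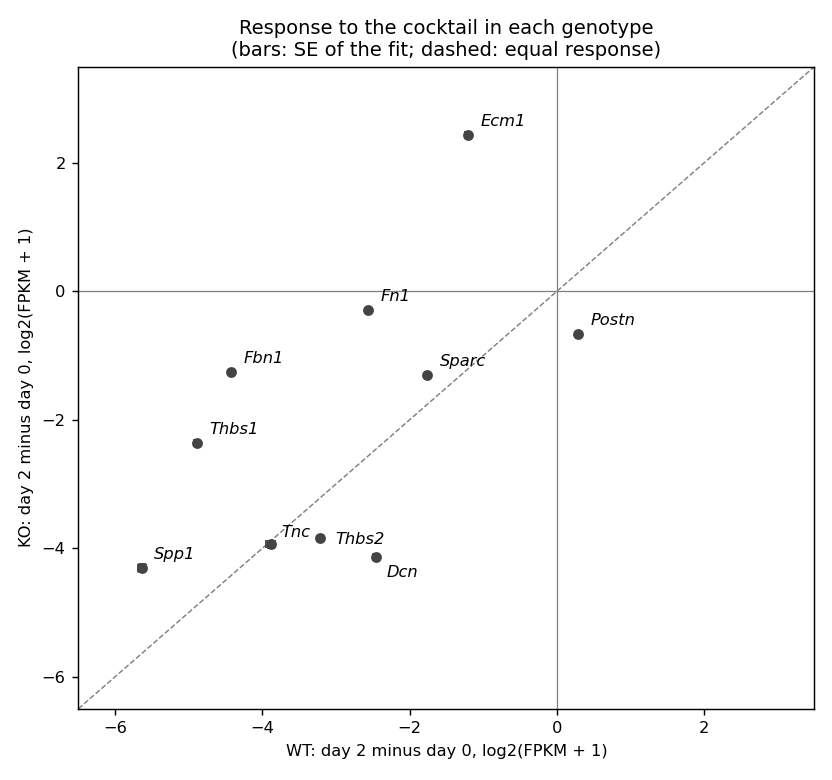
Log2 change from day 0 to day 2 in WT (x axis) and in KO (y axis) for each of the 10 genes, on the log2(FPKM + 1) scale, with the line of equal change. Ecm1 (-1.21 in WT, 2.43 in KO) and Postn (0.29 and -0.66) have opposite signs in the genotypes, and Tnc (-3.89 and -3.94) lies at the line.

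The start regions of 3 genes whose day 2 change differed most between genotypes or changed sign are given here for reading beside those values. RefSeq windows (GRCm38.p6) of 250 bases before to 50 after a start were found for 7 of the 10 genes. The windows were searched on both strands for TATAAA (a form of the TATA box), CCAAT (the box of that name), TGANTCA (AP-1), GGAATG (TEAD) and AGAACA (part of a glucocorticoid receptor site). Matches do not overlap each other in the stretches shown. Only these words were sought, so other forms of a box or site, such as tatataag in a window of Tnc, were not counted. Below are the 250 bases before the start, 5′ to 3′ in the direction of the gene, with matches in capitals. They are those of Ecm1 at chr3:95739570-95739819 (minus strand), of the second start of Postn at chr3:54360857-54361106 (plus strand) and of Fbn1 at chr2:125506439-125506688 (minus strand).
Ecm1: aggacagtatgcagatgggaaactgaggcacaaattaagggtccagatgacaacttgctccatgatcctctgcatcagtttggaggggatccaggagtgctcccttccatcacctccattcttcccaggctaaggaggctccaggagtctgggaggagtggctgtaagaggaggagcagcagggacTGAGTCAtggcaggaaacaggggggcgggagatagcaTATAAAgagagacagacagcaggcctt
Postn: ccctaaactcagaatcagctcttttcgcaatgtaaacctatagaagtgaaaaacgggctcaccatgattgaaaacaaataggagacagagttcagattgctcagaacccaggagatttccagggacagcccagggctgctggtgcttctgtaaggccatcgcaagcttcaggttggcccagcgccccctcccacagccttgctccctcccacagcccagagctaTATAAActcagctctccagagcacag
Fbn1: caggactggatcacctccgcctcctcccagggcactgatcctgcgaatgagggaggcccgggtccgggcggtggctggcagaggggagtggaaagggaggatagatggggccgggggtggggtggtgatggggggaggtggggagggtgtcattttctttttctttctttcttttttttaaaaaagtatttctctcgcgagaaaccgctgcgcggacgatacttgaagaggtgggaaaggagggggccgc
The Ecm1 stretch held TATAAA with its first base at -27 and the AP-1 match TGAGTCA at -64, counted back from the start. The Postn stretch held TATAAA at -26. The window of the first Postn start, not shown, held no TATAAA, and held CCAAT at base 25 after that start. None of the 5 words was found in the Fbn1 window. Over all 32851 windows of this length TATAAA was present in 13.6% and TGANTCA in 7.81%. The 7 members have 10 windows, of which 6, from 5 members, held TATAAA and 1 (Ecm1) held TGANTCA. The windows of Tnc overlap and hold the same TATAAA, so those 6 windows are not 6 separate sites. Apart from Ecm1 and Postn, TATAAA lay further from the start. It was at -126 and -205 in the windows of Tnc, the same bases counted from different starts. In Spp1 it was at -211, and in Thbs2 at -126 on the other strand. CCAAT was present in 37.4% of all windows and in 3 of those 10. AGAACA was in 19.0% of all windows and in 1 of the 10, that of Sparc, with matches at -78 and -14. GGAATG, present in 14.7% of windows, was in no window of a member. A match says only that the letters are there.

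Per length of gene, the order of the 10 levels changed between groups below the first place. In WT at day 0 it ran Sparc, Fn1, Spp1, Thbs1, Postn, Fbn1, Ecm1, Thbs2, Dcn and Tnc, and the libraries of Thbs1 and Postn and those of Dcn and Tnc overlapped. In KO at day 0 Dcn was the 4th, after Sparc, Fn1 and Postn, and was followed by Ecm1, Spp1, Thbs1, Fbn1, Thbs2 and Tnc. WT at day 2 had Postn above Fn1, followed by Ecm1, Spp1, Thbs1, Fbn1, Thbs2, Dcn and Tnc. In KO at day 2 Ecm1 was the third, after Sparc and Fn1, followed by Postn, Fbn1, Thbs1, Dcn, Spp1, Thbs2 and Tnc. No other neighbours in these orders overlapped. The 10 genes together took 1.15% ± 0.01 of the reads in WT and 1.95% ± 0.0054 in KO at day 0, and 0.238% ± 0.0014 and 1.17% ± 0.018 at day 2 (SD, n = 3). Fn1 alone took 0.595% of the reads in WT at day 0 and 0.597% in KO at day 2.

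Related genes were counted from lists, also chosen with earlier results of these data known. The counts cover the genes of a list that passed the expression filter. Their background is that of the members, 38.3% of all genes higher and 44.2% lower in KO at day 0, and 40.8% and 40.6% at day 2. The highest and lowest genes of a list are by the difference in log2(FPKM + 1), and an order by ratios of FPKM can differ. Of 23 other matricellular genes, which include the CCN, SMOC and further tenascin and thrombospondin genes, 14 were tested. In KO 10 of them were higher and 4 lower at day 0, and 12 were higher and 1 lower at day 2, with median log2 differences of 0.75 and 1.24. With the cocktail 11 fell and the other 3 did not pass in WT, and 10 fell and 2 rose in KO. Of all genes, 46.5% fell and 34.2% rose in WT, and 38.8% fell and 33.9% rose in KO. Thbs3, another thrombospondin, had the highest log2 difference of the list at day 2, 3.07, from 4.47 ± 0.147 FPKM in WT to 45.1 ± 2.11 in KO (adjusted p = 1.7e-14). Ccn1, an integrin-binding immediate early protein, fell in WT from 158 ± 1.51 to 12.5 ± 0.887 FPKM and rose in KO from 24.0 ± 1.04 to 85.0 ± 3.37, a difference between responses of 5.35 (adjusted p = 4.9e-14). Tgfbi, a periostin relative, had the lowest log2 difference of the list at both days, at 10.3 ± 0.57 FPKM in WT and 0.0824 ± 0.057 in KO at day 0. Tenascin-N (Tnn) had the highest log2 difference at day 0, 2.80, at 0.264 ± 0.0213 FPKM in WT and 7.83 ± 0.417 in KO.

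Small leucine-rich proteoglycans, the family of decorin, were represented by 6 tested genes of 12. All 6 were higher in KO at day 0, with a median log2 difference of 2.54, and at day 2 5 were higher and 1, Podn, was lower. All 6 fell in KO with the cocktail, where 38.8% of all genes fell. In WT 4 fell and 2 rose, where 46.5% of all genes fell and 34.2% rose. Osteoglycin (Ogn) had the highest log2 difference at both days, at 23.0 ± 0.528 FPKM in WT and 284 ± 5.69 in KO at day 0 and at 1.76 ± 0.0391 and 17.6 ± 1.03 at day 2. Its level before the cocktail in KO was thus close to that of Dcn (279 ± 8.67 FPKM). Biglycan (Bgn), the nearest relative of decorin, was the gene of the list with the most positive difference between responses, 0.51 (adjusted p = 3.2e-08), at 1743 ± 20.8 FPKM in WT and 4509 ± 12 in KO at day 0 and at 961 ± 20.9 and 3537 ± 50.1 at day 2. Prelp had the most negative, -2.45 (adjusted p = 2.5e-10).

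Of 18 microfibril and elastic fibre genes, the surroundings of fibrillin-1, 13 were tested. KO was higher in 9 and lower in 4 at day 0, and higher in 11 and lower in 2 at day 2, with medians of 1.00 and 1.14. Adamtsl4, whose product binds fibrillin-1, rose in KO from 24.0 ± 1.31 to 82.6 ± 1.72 FPKM and fell in WT from 11.5 ± 0.306 to 3.38 ± 0.226 (difference between responses 3.25, adjusted p = 1.9e-12). Fibulin-1 (Fbln1) was near 0 in KO at both days, at 0.0754 ± 0.0442 and 0.0523 ± 0.0239 FPKM, against 16.0 ± 0.704 and 4.82 ± 0.204 in WT. The microfibril protein Mfap5 had the highest log2 difference at day 0, 3.75, from 1.94 ± 0.204 FPKM in WT to 38.5 ± 1.37 in KO (adjusted p = 1.0e-11).

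Among 13 tested genes of a list of 18 other matrix glycoproteins and proteoglycans, KO was higher in 10 and lower in 3 at day 0, and higher in 8 and lower in 4 at day 2. Versican (Vcan), a hyaluronan-binding proteoglycan, had the lowest log2 difference of the list at day 0, at 281 ± 12.2 FPKM in WT and 102 ± 0.621 in KO (adjusted p = 2.4e-12). At day 2 it was 265 ± 6.46 FPKM in WT and 941 ± 32.9 in KO, and its difference between responses, 3.28, was the most positive of the list (adjusted p = 1.5e-13). Matrilin-2 (Matn2) had the highest log2 difference at both days (1.56 and 2.82), at 14.2 ± 0.369 FPKM in WT and 106 ± 2.18 in KO at day 2 (adjusted p = 9.5e-16).

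Receptors of the 10 proteins, mainly integrins, syndecans and CD44, had 15 tested genes of 19. At day 0 7 of them were higher in KO, 6 lower and 2 did not pass, shares near those of all genes (38.3% higher and 44.2% lower). At day 2 12 of the receptor genes were higher and 2 lower, with a median log2 difference of 0.79, where 40.8% of all genes were higher and 40.6% lower. Cd44, the hyaluronan and osteopontin receptor, fell in WT from 91.1 ± 1.73 to 21.4 ± 0.278 FPKM and rose in KO from 32.2 ± 0.752 to 55.4 ± 1.22 (difference between responses 2.81, adjusted p = 7.4e-14). Ddr2, a receptor for fibrillar collagen, was 42.4 ± 1.37 FPKM in WT and 230 ± 6.31 in KO at day 2. Cd36 went the opposite way, at 640.1 ± 10.2 FPKM in WT and 2.91 ± 0.257 in KO at day 2 (adjusted p = 3.8e-15). Cd36 binds thrombospondins but is also a fatty acid carrier and an adipocyte marker, and is counted in that marker list too. Of the 6 genes of TGF-beta ligands and receptors, all tested, 3 were higher and 2 lower in KO at day 0, and 3 were higher and 3 lower at day 2. Tgfbr2, a signalling receptor, was 27.1 ± 1 FPKM in WT and 81.7 ± 2.38 in KO at day 2, and Tgfb2, a ligand, was 4.16 ± 0.386 and 0.923 ± 0.31.

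**Figure D4:**
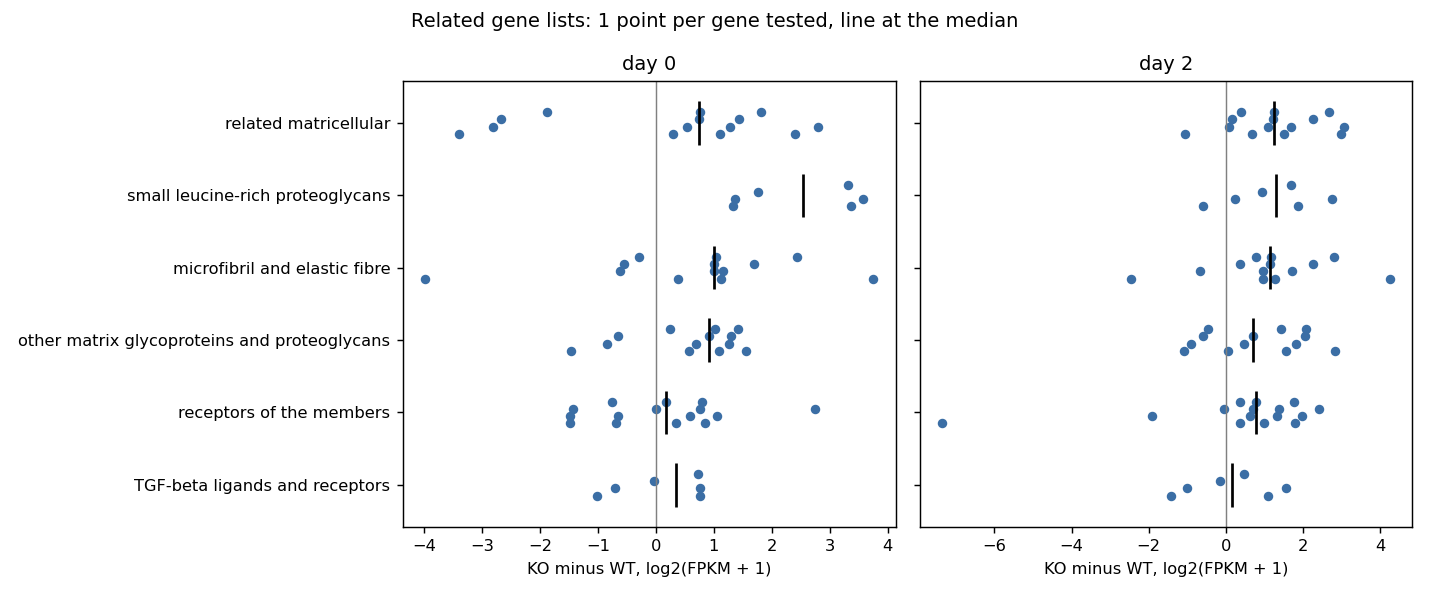
Log2 difference between KO and WT for each tested gene of the related lists at day 0 and day 2, with 1 point per gene and a line at the list's median. The 10 members are not drawn. The median of the small leucine-rich proteoglycans is 2.54 at day 0 and 1.30 at day 2.

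The members did not share a single pattern over the 12 libraries. As a description, Pearson's r of log2(FPKM + 1) was 0.98 for Spp1 with Tnc, 0.97 for Thbs2 with Tnc, 0.97 for Fbn1 with Fn1 and 0.96 for Fbn1 with Thbs1. It was lowest for Ecm1 with Spp1, at -0.21. With 4 groups of 3 libraries such values rest on 4 group means, and the points of a pair come from the same libraries. Leaving out the members, predicted genes and clone names, between 9 and 74 of the tested genes reached 0.99 with a given member. The closest genes were B2m for Sparc (r = 0.9995), Mapk3 for Fn1 (0.9992), Ogt for Postn (0.997), Jcad for Ecm1 (0.999) and Gper1 for Tnc (0.9966). They were Wwc2 for Thbs1 (0.999), Ebf3 for Thbs2 (0.9987), Ifi44 for Dcn (0.998), Fads3 for Spp1 (0.9981) and Ahnak2 for Fbn1 (0.9995).

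Sums over the markers of contractile cells and of macrophages also differed between the groups. The 5 smooth muscle and myofibroblast markers summed to 534 to 551 FPKM in WT and 74.1 to 76.4 in KO at day 0. At day 2 they summed to 3.69 to 4.20 in WT and 19.8 to 21.7 in KO. These sums are mostly Acta2, the only gene of the list to pass the expression filter. Each of the others averaged below 1 FPKM in every group, and not all followed Acta2. In WT Myh11 went from 0.0212 ± 0.0139 FPKM at day 0 to 0.327 ± 0.0543 at day 2. The 6 macrophage markers, of a cell type known for osteopontin, summed to 12.1 to 13.6 FPKM in WT and 26.8 to 27.9 in KO at day 0, and to 6.22 to 7.79 and 12.2 to 13.4 at day 2. At day 0 Lyz2 made most of the difference between genotypes (1.503 ± 0.244 and 14.8 ± 0.156 FPKM), Cd68 did not pass and Adgre1 was at 0. By day 2 Lyz2 and Cd14 fell in both genotypes, while Cd68 rose in both. Cd68 went from 2.04 ± 0.566 to 5.98 ± 0.852 FPKM in WT and from 1.69 ± 0.0658 to 6.09 ± 0.996 in KO. Ptprc, Adgre1 and Csf1r averaged below 1 FPKM in every group. The part of either list in the members' values was not tested.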

How the data were processed

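RNA-seq of 3T3-L1 cells gave 12 libraries, 3 for each combination of genotype label and day. The series holds 36 samples, and its 24 MeRIP samples were not analysed here. The authors deposited FPKM values for 52505 genes. Per the submitters' processing notes the build was mm10 and the tools were TopHat2 2.0.12 and Bowtie2 2.2.3, HTSeq 0.6.1, MACS2 2.1.0, BWA 0.7.12, FastQC and CASAVA. Not given in the sources used here are their roles, the annotation, the strand setting and the FPKM formula, so reads of overlapping antisense genes cannot be told apart.

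Tests used log2(FPKM + 1) of the 12961 genes averaging 1 FPKM or more. The model, limma 3.58.1 under R 4.3.3, had 4 group means, an eBayes trend and 8 residual degrees of freedom. Tests were 2-sided, with Benjamini-Hochberg adjustment over all genes within each comparison and a threshold of 0.05. Log2 differences are on the log2(FPKM + 1) scale, which understates changes of low genes, and folds are ratios of mean FPKM. The script was tested on simulated data.

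Whole reads were recovered from the FPKM values for all 30916 genes above 0 (100%, tolerance 0.001 reads), giving 18073746 to 23116567 reads per library. They served for depth, for shares of reads and for voom, which called 7 members higher and 2 lower at day 0 and 8 higher at day 2, as limma did. A gene with few reads can come out divided by a common factor. Within groups, pairs of libraries differed by a median chi-square of 1.38 to 2.15 times counting noise, and no pair had the look of a library deposited again.

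The 10 genes, the related lists and the marker lists were chosen with earlier results of these data known, so no list was tested as a set. From each related list the text names the genes with the largest passing rise and fall in each genotype comparison and in the interaction, or some of them. For likeness, the gene with the highest Pearson r was taken among the tested genes other than the members, predicted genes and clone names. Same-numbered libraries deviated from their group means with correlations of -0.05 to 0.09, so no pairing by number was visible. Whether same-numbered libraries shared a culture is not in the labels, and such correlations cannot exclude it. Symbols, positions and promoter windows are RefSeq's (GRCm38.p6). Protein sequences were not used here. Alternatives changed the pseudocount, filter, scaling, variance trend, libraries fitted, replicate block and test, and left out each library in turn.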

Additional observations from a re-analysis of the deposited data

Results flagged for a closer look

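The response to the cocktail differed between the genotypes for 9 of the 10 members by the interaction test of limma (the KO response minus the WT response, log2 scale, all with an adjusted p under 0.05). Of all genes tested 73.8% were called, 40.8% more positive and 33% more negative in KO, so a call alone is common. The response was more positive in KO by 3.64 for Ecm1, 3.17 for Fbn1, 2.53 for Thbs1, 2.26 for Fn1, 1.33 for Spp1 and 0.47 for Sparc. Ecm1 is the case in which WT fell and KO rose, and for the other 5 both genotypes fell, WT further. The response was more negative in KO by -1.68 for Dcn, -0.95 for Postn and -0.63 for Thbs2. Postn rose in WT and fell in KO, while Dcn and Thbs2 fell in both genotypes, KO further.

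In the related lists the test called most of the tested genes, and named here is the most extreme called gene of each list in each direction, 12 in all. The more positive responses in KO were those of Ccn1 (5.35), Vcan (3.28), Adamtsl4 (3.25), Cd44 (2.81), Tgfb1 (1.13) and Bgn (0.51). The more negative ones were those of Cd36 (-7.54), Prelp (-2.45), Tgfb2 (-2.20), Mfap4 (-2.07), Tnr (-2.01) and Agrn (-1.69). Tnr was below 1 FPKM in 3 of the 4 groups.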

How the results depend on the processing

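The 50 values of the 10 genes were recomputed under 22 alternatives. Of the 1090 values obtained, 1074 kept their direction and their side of the threshold, and most of the others belong to Tnc, whose level at day 2 is near 1 FPKM. The Tnc interaction (-0.05) was 0.0566 with a pseudocount of 0.1 and 0.0694 with voom, and -0.104 to 0.00677 when each library was left out. The Tnc genotype difference at day 2 (0.12) was -0.19 with quantile normalization, which gave 1 lower member there where 0 were lower otherwise, and 0.06 to 0.17 with each library left out. It passed with a pseudocount of 0.1 (adjusted p = 0.0365), with TPM scaling (0.0311), with no variance trend (0.0434) and without KO day 2 replicate 1 (0.00937). The Spp1 difference at day 2 (0.01) was -0.00274 with median-of-ratios scaling, -0.0489 with quantile normalization and -0.0679 to 0.0821 with each library left out, so no direction can be given for it. In that last set 8 to 9 members were higher at day 2. The cause was not tested. Quantile normalization moved the median change of all genes from day 0 to day 2 in WT by 0.12.

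With the replicate block, 10652 genes were called between genotypes at day 0 and 10515 at day 2, and no call of a member changed. Depth limits Tnc most, with as few as 92 reads in a library.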
